A study of Mus musculus with 8 samples.

Results

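*Pm20d1*, 3 of its relatives (*Pm20d2*, *Acy1* and *Cndp2*) and *Faah* were followed in the retinas of *Rbfox2* KD and control mice. These 5 of the 17500 genes in the deposited count table were picked by name. *Pm20d1* was picked because its counts differ between the groups of mice in this same table, so its difference is given below as a description without a test. The others were picked because they belong to the M20 peptidase family or, for *Faah*, because the enzyme acts on the same lipids. All 5 were present in the table and all 5 passed the low-count filter, which 16797 genes passed in all.

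*Pm20d1* encodes a secreted enzyme that joins fatty acids to amino acids and also splits the resulting N-acyl amino acids, lipids known from brown fat and blood for their ability to uncouple mitochondrial respiration. *Acy1* (aminoacylase 1) removes the acetyl group from N-acetylated amino acids, *Cndp2* is the cytosolic dipeptidase that cleaves a broad range of dipeptides, and *Pm20d2* hydrolyses dipeptides that hold a β-alanine or γ-aminobutyric acid residue joined to a basic amino acid. *Faah* is a membrane-bound serine hydrolase outside the M20 family, best known for breaking down the endocannabinoid anandamide, and it also hydrolyses N-acyl amino acids inside cells.

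Whole retinas of 4 control mice (M833, M894, M896, M898) and 4 *Rbfox2* KD mice (M893, M901, M902, M909), all 6 months old and on the C57BL/6J strain background, were sequenced as poly(A)-selected libraries with 1 library per mouse. Per the study's methods the KD mice were *Rbfox2* fl/fl and carried a tamoxifen-activated Cre recombinase, and the deletion was not limited to the retina. The controls were heterozygous *Rbfox2* fl/+ mice of the same age, for which the methods name no Cre and do not state tamoxifen. In the paper, the KD mice received tamoxifen as a short course of days in adulthood, and their retinas were taken 4 months later. Corn oil vehicle is also mentioned, without the mice that received it. The labels instead give tamoxifen treatment for 4 months for every mouse. Effects of Cre or of tamoxifen itself therefore cannot be told apart from those of the deletion. Each library held 160630226 to 211283591 counts, and 3 counts correspond to a normalised read count of 0.0144 to 0.0189 CPM, the count scaled to library size. Expression of *Rbfox2* itself was 56.4 ± 3.15 CPM in KD and 149.6 ± 5.39 CPM in control retinas (SD, n = 4), with every KD mouse below every control mouse. Markers of all retinal cell classes were present. M901 and M902 were the only libraries with high *Xist*, with 277506 and 275967 counts against 312 to 426 in the other mice, so the groups differed in the number of mice with this transcript of the inactive X chromosome.

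*Pm20d1* lies on the forward strand of chromosome 1 (GRCm38, chr1:131797381-131821473). Its expression was low in control retinas and higher in every KD retina. The control mice M833, M894, M896 and M898 had 355, 399, 344 and 520 counts, which correspond to 1.71, 2.26, 1.80 and 2.94 CPM. The KD mice M893, M901, M902 and M909 had 1374, 1269, 1074 and 1295 counts, or 7.81, 6.58, 6.77 and 6.75 CPM. The groups stood well apart, and the lowest KD mouse was 2.24-fold above the highest control mouse.

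The mean level of *Pm20d1* was 6.98 ± 0.561 CPM in KD and 2.17 ± 0.562 CPM in control retinas (SD, n = 4). The fitted log2 fold change was 1.68 (standard error 0.163, 95% interval 1.32 to 2.05), a 3.21-fold higher level. Since the gene was chosen on this difference, these numbers only describe it. The controls varied more among themselves than the KD mice relative to their mean. Their coefficient of variation was 25.9%, with a 1.72-fold range from M833 to M898, while that of the KD mice was 8.04%, with a 1.19-fold range. Relative to the control mean, the KD mice reached 3.59-fold (M893), 3.03-fold (M901), 3.11-fold (M902) and 3.10-fold (M909). Whether the difference in *Xist* between the groups has a part in these levels was not tested.

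**Figure D1:**
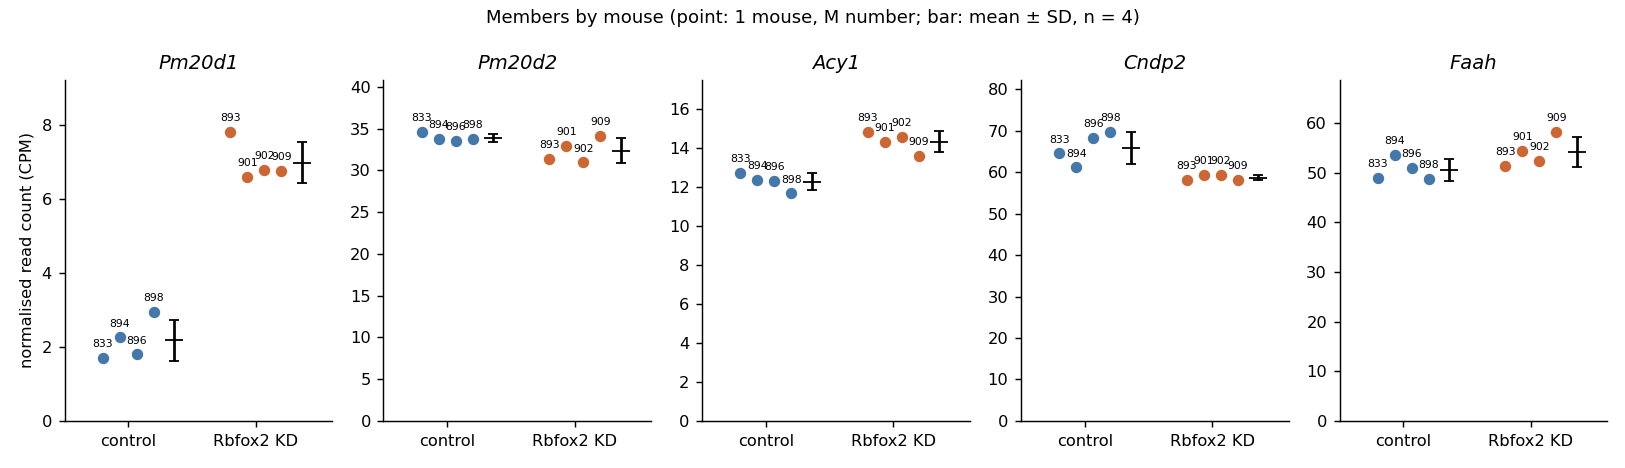
Normalised read count (CPM, vertical axes from 0) of the 5 genes in each mouse, with blue points for control mice, orange points for *Rbfox2* KD mice, the mouse numbers above the points and black bars for mean ± SD (n = 4). For *Pm20d1* the KD mice sit between 6.58 and 7.81 CPM and the controls between 1.71 and 2.94 CPM, the points of *Acy1* and *Cndp2* separate by much smaller steps, and those of *Pm20d2* and *Faah* overlap.

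*Acy1* (chr9:106432981-106438319, reverse strand) showed a small difference in the same direction as *Pm20d1*. Control mice M833, M894, M896 and M898 had 12.7, 12.3, 12.3 and 11.7 CPM, and KD mice M893, M901, M902 and M909 had 14.8, 14.3, 14.6 and 13.6 CPM. All KD mice lay above all control mice, by 1.07-fold at the closest pair. The log2 fold change was 0.22 (standard error 0.0498, 95% interval 0.11 to 0.34), or 16.9% higher, with an unadjusted p of 0.00112 and an adjusted p of 0.147 (quasi-likelihood test of edgeR, Benjamini-Hochberg over all genes tested). *Acy1* therefore did not pass the threshold of a false discovery rate (FDR) under 0.05. With DESeq2 on the same counts its adjusted p was 0.00501, and over all alternatives it ranged from 0.00501 to 0.709. The neighbouring genes *Rpl29* and *Abhd14a* end or begin 1413 and 1732 bases away and do not overlap *Acy1*, and no annotated gene lies within 5 kb of the other 4 genes.

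*Cndp2* (chr18:84667465-84685702, reverse strand) differed in the opposite direction. It was measured at 64.5, 61.2, 68.3 and 69.8 CPM in control mice M833, M894, M896 and M898, and at 58.2, 59.3, 59.4 and 58.1 CPM in KD mice M893, M901, M902 and M909. Every KD mouse was below every control mouse, and the KD mice were close together, with a coefficient of variation of 1.16% against 5.86% in controls. The log2 fold change was -0.17 (standard error 0.044, 95% interval -0.27 to -0.07), with an unadjusted p of 0.00347 and an adjusted p of 0.200 in edgeR's quasi-likelihood test. DESeq2 gave an adjusted p of 0.0337, and all alternatives together a range of 0.0337 to 0.729.

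*Pm20d2*, the closest namesake of *Pm20d1* (chr4:33174230-33189737, reverse strand), had overlapping groups and did not pass the threshold. Control mice M833, M894, M896 and M898 had 34.6, 33.8, 33.6 and 33.8 CPM, and KD mice M893, M901, M902 and M909 had 31.4, 32.9, 31.0 and 34.2 CPM. The KD mouse M909 fell in the narrow control range and the other 3 lay below it. The log2 fold change was -0.07 (95% interval -0.16 to 0.03, adjusted p = 0.519 with edgeR's quasi-likelihood test).

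*Faah* (chr4:115967145-116017926, reverse strand) had 49.0, 53.6, 50.9 and 48.7 CPM in control mice M833, M894, M896 and M898. In KD mice M893, M901, M902 and M909 it had 51.5, 54.4, 52.4 and 58.3 CPM. The groups overlapped, with M893 and M902 inside the control range and M901 and M909 above it. Its log2 fold change was 0.10 (95% interval -0.01 to 0.21, adjusted p = 0.427 with edgeR's quasi-likelihood test).

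Of the 5 genes, 1 had an FDR under 0.05 in edgeR's quasi-likelihood test, and this was *Pm20d1*, for which the call repeats the choice. Over all 16797 genes tested, 11 genes or 0.0655% were called, of which 6 or 0.0357% were higher in KD retinas. Among the other 4 genes 0 were called. The groups did not overlap in 2 of these 4 genes (*Acy1* and *Cndp2*), against 7.03% of all genes, and the same 2 had an unadjusted p under 0.05, against 13.3% of all genes. DESeq2 called the same 2 and 2.74% of all genes. With 4 genes these counts are small, and one of the 2 genes was higher and the other lower in KD retinas.

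Some retinal marker panels also differed between the groups. The summed level of 4 cone markers was 782 to 899 CPM in KD against 733 to 740 CPM in control mice, that of 4 Müller glia markers was 3787 to 3995 against 4067 to 4390 CPM, and that of 3 horizontal cell markers was 71.6 to 75.0 against 88.9 to 92.7 CPM. Each sum was carried mainly by 1 marker. For horizontal cells this was *Calb1* (56.3 to 60.5 against 73.9 to 78.0 CPM). *Onecut1* was also lower in every KD mouse, with 5.39 to 5.64 against 5.91 to 6.21 CPM. *Lhx1* leaned the other way with 8.86 to 10.4 against 7.53 to 8.87 CPM and overlapped. For Müller glia the main marker was *Glul* (2946 to 3083 against 3214 to 3565 CPM), the other 3 markers overlapping between groups. For cones it was *Opn1sw* (383.7 to 473.7 against 333.2 to 388.2 CPM), while *Opn1mw* had 78.3 to 105.6 against 92.6 to 117.4 CPM. In counts from whole retina, a change in the number of cells and a change in RNA per cell cannot be told apart. In sections of *Rbfox2*-deficient retinas, the paper reports that calbindin staining appeared unaffected and that retinal architecture was normal. It also describes calbindin as a marker of both amacrine and horizontal cells. The part of these panels in the differences of *Pm20d1*, *Acy1* and *Cndp2* was not tested. The summed markers of tissue next to the retina varied between mice and overlapped between groups. The sum of 6 pigment epithelium markers was 44.5 to 127.2 CPM in KD and 53.6 to 187.1 CPM in control mice, and that of 4 ciliary epithelium markers was 1.90 to 25.4 against 17.5 to 45.8 CPM. Both sums were highest in the control mouse M898, which was also the control with the most *Pm20d1*. The ciliary marker *Best2* did not overlap, with 4.26, 0.150, 0.208 and 4.14 CPM in M893, M901, M902 and M909 against 5.13 to 16.0 CPM in controls. *Slc13a4*, another ciliary marker, was at 1.48 and 1.29 CPM in M901 and M902 and at 10.4 to 21.9 CPM in the other mice. Of 5 adipocyte markers, 4 were in the table. Their sum was 1.93 to 5.37 CPM in KD and 3.27 to 3.88 CPM in control mice and overlapped, and *Ucp1*, the uncoupling protein that defines brown fat, was at or below 0.104 CPM in every mouse. Surface epithelium markers were highest in the KD mouse M909, with a sum of 40.4 CPM against 0.904 to 2.18 CPM in controls. The marker *Krt5* was also higher in M901 (2.47 CPM) and M902 (1.13 CPM) than in controls (0.21 to 0.58 CPM). *Krt12* and *Krt13* in M901 and M902 lay within the control range. *Pm20d1* in M909 (6.75 CPM) lay between its levels in M901 and M902, and the part of this tissue in its level was not tested.

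To compare levels between genes, the deposited FPKM values, which are scaled to gene length, were used. The mean over the 8 mice was 28.9 ± 2.37 FPKM for *Cndp2*, 13.7 ± 0.784 for *Faah*, 9.19 ± 0.772 for *Acy1*, 5.95 ± 0.251 for *Pm20d2* and 1.29 ± 0.735 for *Pm20d1* (SD, n = 8, both groups together). *Pm20d1* was thus the least abundant of the 5 in every mouse, with 0.475, 0.645, 0.512 and 0.843 FPKM in control mice M833, M894, M896 and M898 and 2.22, 1.84, 1.89 and 1.89 FPKM in KD mice M893, M901, M902 and M909. Over the 8 mice the ranges of neighbours in this order did not overlap.

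In control retinas *Pm20d2* was at 9.89-fold, *Acy1* at 13.8-fold, *Faah* at 21.5-fold and *Cndp2* at 49.7-fold the FPKM of *Pm20d1*. In KD retinas these ratios were 2.95, 5.03, 7.19 and 13.8. *Pm20d1* therefore remained below its relatives also where it was higher. Among all genes in the table its mean FPKM stood at percentile 22.4 in control and 33.2 in KD retinas. The order of the other genes depended on the gene model. The FPKM values imply a length of 5573 bases for *Pm20d2* and 3540 bases for *Pm20d1*, whereas the merged exons of the GENCODE annotation add up to 1834 and 7028 bases. Per kilobase of GENCODE exons *Pm20d2* was the highest of the 5 with 18.1 CPM per kilobase, followed by *Cndp2* with 14.7, *Faah* with 6.68, *Acy1* with 4.48 and *Pm20d1* with 0.651.

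**Figure D2:**
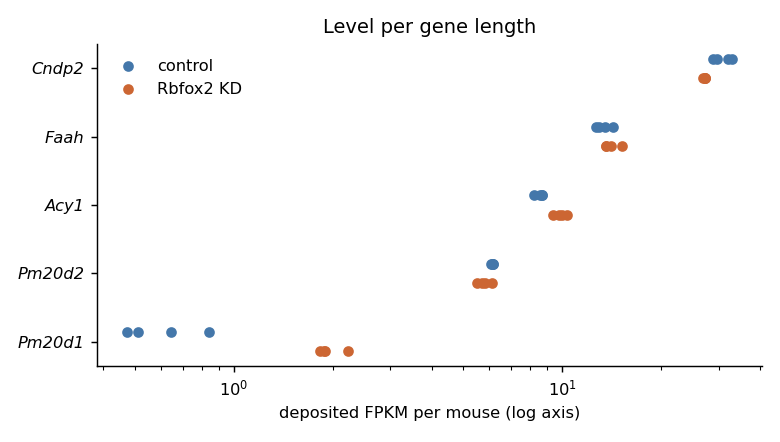
Deposited FPKM of the 5 genes in each mouse (horizontal log axis, 1 point per mouse, blue for control and orange for *Rbfox2* KD). *Cndp2* is at the right with a mean of 28.9 FPKM and *Pm20d1* at the left, where the control points lie between 0.475 and 0.843 FPKM and the KD points between 1.84 and 2.22 FPKM.

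Rbfox proteins bind RNA at the hexamer UGCAUG, so the mRNAs of the 5 genes were searched for TGCATG, its DNA form, on the sense strand, in 1 GENCODE transcript per gene. In the transcript chosen for *Pm20d1* (6900 bases, of which 5351 are 3′ untranslated region) there were 3 matches, all in the coding sequence, and 0 in the long 3′ untranslated region. *Acy1* had 1 match in its coding sequence, *Faah* had 2, of which 1 was in the 3′ untranslated region, and *Cndp2* had 1 outside its 3′ untranslated region. *Pm20d2* had 0 matches in a transcript of 1445 bases, with an annotated 3′ untranslated region of only 96 bases. The deposited FPKM imply a length of 5573 bases for *Pm20d2*, so its 0 covers only part of that length. Introns were not searched for any gene. Matches are common, since 54.0% of 14916 coding genes tested had at least 1 in the transcript and 31.8% in the 3′ untranslated region, so their presence here is a description. The windows of 30 bases below show the hexamer in capitals, because it is the letters of the deleted protein's known binding motif that these mRNAs share. The window of the *Cndp2* match is not printed.
Pm20d1, exon 4, coding, chr1:131801733-131801738: tgatggcgatccTGCATGctttggagctcc
Pm20d1, exon 11, coding, chr1:131812081-131812086: acagagtccagcTGCATGtgttgagatcct
Pm20d1, exon 13, coding, chr1:131816097-131816102: cagttcctcatcTGCATGaactatgaggca
Acy1, exon 15, coding, chr9:106433167-106433172: ataatgaacggcTGCATGaggatatatttc
Faah, exon 7, coding, chr4:116004424-116004429: agcctggcattgTGCATGaaagccctactt
Faah, exon 15, 3′ untranslated region, chr4:115997207-115997212: ggtcaagaaggcTGCATGcatcaacttcta
The coordinates are those of the hexamer in GRCm38, and the windows are written 5′ to 3′ along the mRNA. Counts per gene do not tell which exons the reads came from.

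The wider group of M20 peptidases and aminoacylases held 4 more genes, *Cndp1*, *Acy3*, *Aspa* and *Apeh*, and 0 of these 4 had an FDR under 0.05 with edgeR or DESeq2, while 2 had an unadjusted p under 0.05, against 13.3% of all genes. *Acy3*, which deacetylates N-acetylated aromatic amino acids and mercapturic acids, was measured at 0.874, 1.32, 0.888 and 1.46 CPM in control mice M833, M894, M896 and M898. In KD mice M893, M901, M902 and M909 it was at 0.665, 0.550, 0.794 and 0.854 CPM. All KD mice were below all controls, though M909 came close to M833, and the log2 fold change was -0.67 (95% interval -1.15 to -0.18, adjusted p = 0.268 with edgeR's quasi-likelihood test). *Apeh*, which removes N-acetylated residues from peptides, had a log2 fold change of 0.15 (95% interval 0.03 to 0.28, adjusted p = 0.307 with the same test), with 1 KD mouse in the control range. *Aspa*, the aspartoacylase that splits N-acetylaspartate, had a log2 fold change of -0.61 (95% interval -1.48 to 0.25, adjusted p = 0.529, same test). Its counts were 55 to 248 per mouse, and control M898 had 1.40 CPM against 0.519 to 0.549 CPM in the other controls. *Cndp1*, the carnosine dipeptidase of serum, had a log2 fold change of -0.22 (95% interval -1.39 to 0.95, adjusted p = 0.891, same test). *Cndp1* had only 8 to 75 counts per mouse. The median log2 fold change of these 4 genes was -0.42, beside 0.002 for all genes tested.

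Genes of the N-acyl amide and endocannabinoid pathways were examined next. Of 30 genes listed, 25 were in the table and 24 were tested, *Faah* among them, and 0 had an FDR under 0.05 with edgeR's quasi-likelihood test. At an unadjusted p under 0.05 there were 3, all lower in KD retinas, which for 24 genes is near the 13.3% over all genes. The median log2 fold change of the 24 was 0.004. *Pla2g4e*, the N-acyltransferase that makes the precursors of N-acylethanolamines, had 5.34, 6.95, 6.70 and 5.95 CPM in control mice M833, M894, M896 and M898 and 4.92, 4.43, 4.10 and 5.09 CPM in KD mice M893, M901, M902 and M909. The groups were apart by a small step, and the log2 fold change was -0.43 (95% interval -0.66 to -0.19, adjusted p = 0.179 with edgeR). It was the 1 gene of the lists outside the 5 that DESeq2 called.

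*Cnr1*, the cannabinoid receptor of neurons, had a log2 fold change of -0.14 (95% interval -0.26 to -0.02, adjusted p = 0.339 with edgeR) with groups that did not overlap, KD mice reaching at most 29.3 CPM and controls at least 29.7 CPM. *Cnr2*, the cannabinoid receptor of immune cells, was near the detection limit with 4 to 19 counts per mouse and a log2 fold change of -0.99 (95% interval -1.95 to -0.04, adjusted p = 0.363 with edgeR). *Abhd12*, a lipase that takes part in the breakdown of 2-arachidonoylglycerol, had a log2 fold change of -0.07 (adjusted p = 0.400 with edgeR). *Napepld*, which releases N-acylethanolamines from their phospholipid precursors, was at 14.9 ± 0.628 CPM in KD and 14.6 ± 1.04 CPM in control retinas.

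Among 10 tested genes of carnosine and small peptide metabolism, *Cndp2* included, 0 had an FDR under 0.05 with edgeR's quasi-likelihood test, and 3 had an unadjusted p under 0.05, all lower in KD retinas, against 13.3% of all genes in either direction. These were *Cndp2*, already described, *Hdc* and *Gadl1*. *Hdc*, the histidine decarboxylase that makes histamine, was at 58.9 ± 2.95 CPM in KD and 69.0 ± 6.91 CPM in control retinas (log2 fold change -0.23, 95% interval -0.38 to -0.08, adjusted p = 0.239 with edgeR). *Gadl1*, a decarboxylase that forms β-alanine, had a log2 fold change of -0.40 (95% interval -0.73 to -0.07, adjusted p = 0.300 with edgeR). In both genes 1 KD mouse lay in the control range. *Carns1*, which joins β-alanine and histidine to carnosine, had a log2 fold change of -0.10, and *Slc15a4*, a transporter of histidine and small peptides, one of 0.07.

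Of 7 tested genes for mitochondrial uncoupling and adenine nucleotide carriers, 0 had an FDR under 0.05 with edgeR or DESeq2. An unadjusted p under 0.05 was found in 1, which for 7 genes is near the 13.3% over all genes. This gene was *Ucp2*, an uncoupling protein found in many tissues. Control mice M833, M894, M896 and M898 had 20.6, 45.0, 25.7 and 75.9 CPM, and KD mice M893, M901, M902 and M909 had 25.0, 13.6, 14.8 and 19.5 CPM. The controls spread widely, M893 lay within their range, and the log2 fold change of -1.20 had a 95% interval of -2.03 to -0.36 (adjusted p = 0.254 with edgeR's quasi-likelihood test). The pigment marker *Tyrp1* varied in a like way, with 5.13, 24.9, 6.01 and 65.7 CPM in M833, M894, M896 and M898 and 12.9, 1.86, 2.89 and 7.26 CPM in M893, M901, M902 and M909. The highest mice were M898 and M894 for both genes, and the part of pigmented cells in the values of *Ucp2* was not tested. *Slc25a5*, *Slc25a14* and *Slc25a27* had log2 fold changes of 0.09, 0.11 and 0.06. Over the 66 tested genes of all lists outside the 5, including the chromosomal neighbours described below, 0 were called by edgeR and 8 had an unadjusted p under 0.05, a share close to the 13.3% over all genes.

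**Figure D3:**
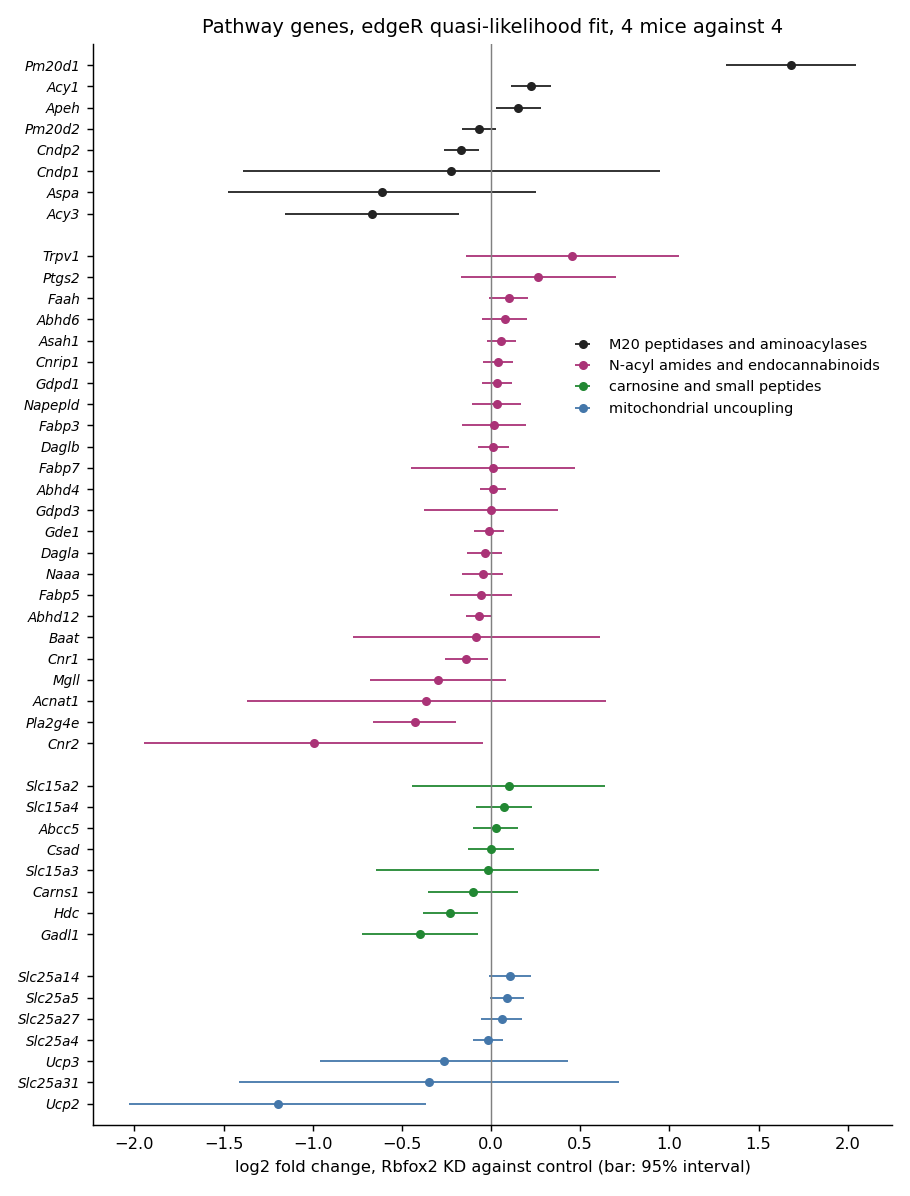
Log2 fold change of each tested gene of 4 lists (points, horizontal axis, *Rbfox2* KD against control, 4 mice against 4) with its 95% interval (bars), coloured by list. *Pm20d1* stands at 1.68 with an interval of 1.32 to 2.05, and the other genes range from -1.20 (*Ucp2*) to 0.46 (*Trpv1*), with wide intervals for genes of few counts.

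The genes around *Pm20d1* on chromosome 1 were examined as well. Within 1 Mb on either side, 26 genes were in the table and 24 were tested. None had an FDR under 0.05 (0 with edgeR's quasi-likelihood test, against 0.0655% of all genes, and 0 with DESeq2, against 2.74%). An unadjusted p under 0.05 was found in 0, against 13.3% of all genes. Their median log2 fold change was -0.04 and the range was -0.23 to 0.65. The nearest, *Slc41a1*, a magnesium transporter 6.02 kb away, had 76.2, 78.0, 74.7 and 84.6 CPM in control mice M833, M894, M896 and M898 and 73.4, 67.8, 69.4 and 81.5 CPM in KD mice M893, M901, M902 and M909. These values overlapped, and its log2 fold change was -0.10 (95% interval -0.24 to 0.04, adjusted p = 0.510 with edgeR).

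*Rab29*, a small GTPase 45.8 kb away, and *Nucks1*, a nuclear DNA-binding protein 89.1 kb away, had log2 fold changes of -0.18 and -0.06. The highest value of 0.65 belonged to *Pigr*, the receptor that carries immunoglobulins across epithelia, which had 20 to 149 counts per mouse and its highest count in M909, the mouse with high surface epithelium markers. *Mapkapk2*, a kinase of the p38 pathway, was the 1 neighbour of 24 tested whose groups did not overlap, against 7.03% of all genes. It had at most 42.0 CPM in KD and at least 42.4 CPM in control mice (log2 fold change -0.05). *Tmcc2*, *Rbbp5* and *Nfasc* had the lowest p-values beside *Nucks1*, and with log2 fold changes of 0.08, 0.13 and 0.11 they did not pass the threshold either.

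**Figure D4:**
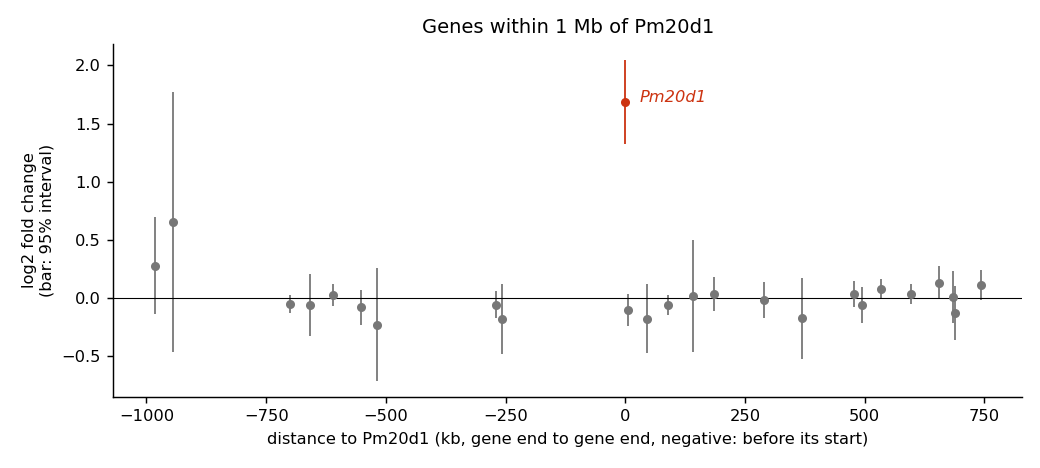
Log2 fold change (vertical axis, with 95% intervals as bars) of the 24 tested genes within 1 Mb of *Pm20d1* against their distance from it in kb (horizontal axis, gene end to gene end). *Pm20d1* (red) is at 1.68, and the neighbours (grey) lie between -0.23 and 0.65.

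The pattern of *Pm20d1* over the 8 mice was compared with that of every tested gene by Pearson's r of log2 CPM. This r contains the difference between the groups by which *Pm20d1* was chosen, so it is given without a test, followed by the r that remains after the mean of each group is removed. The most similar genes were *Angpt2*, an angiopoietin that acts on vessels, with r = 0.978 (0.728 after removing group means), *Arhgap15*, a Rac GTPase-activating protein, with r = 0.970 (0.388), *Top1mt*, the mitochondrial topoisomerase, with r = 0.969 (0.665), *Dnajc21*, a heat-shock co-chaperone, with r = 0.965 (0.522), and *Olfml3*, a secreted olfactomedin-like protein, with r = 0.963 (0.562). Genes chosen in this way separate the groups by construction, and their log2 fold changes ran from 0.12 (*Dnajc21*) to 0.98 (*Arhgap15*).

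The most opposite genes were *Calb1*, the calcium-binding protein calbindin, with r = -0.973 (-0.490 after removing group means), *B3galt5*, a galactosyltransferase, with r = -0.972 (-0.584), *Rbfox2* with r = -0.967 (-0.196), *Tnik*, a kinase, with r = -0.958 (-0.589), and *Eef2k*, the kinase of elongation factor 2, with r = -0.950 (-0.219). An r of at least 0.9 was reached by 35 genes, and 39 genes had an r of -0.9 or below. Among the other members r was 0.850 for *Acy1*, 0.553 for *Faah*, -0.665 for *Pm20d2* and -0.780 for *Cndp2*. After removing group means the values were -0.469, -0.192, -0.257 and 0.233, so the sign of r turned for *Acy1*, *Faah* and *Cndp2*.

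**Figure D5:**
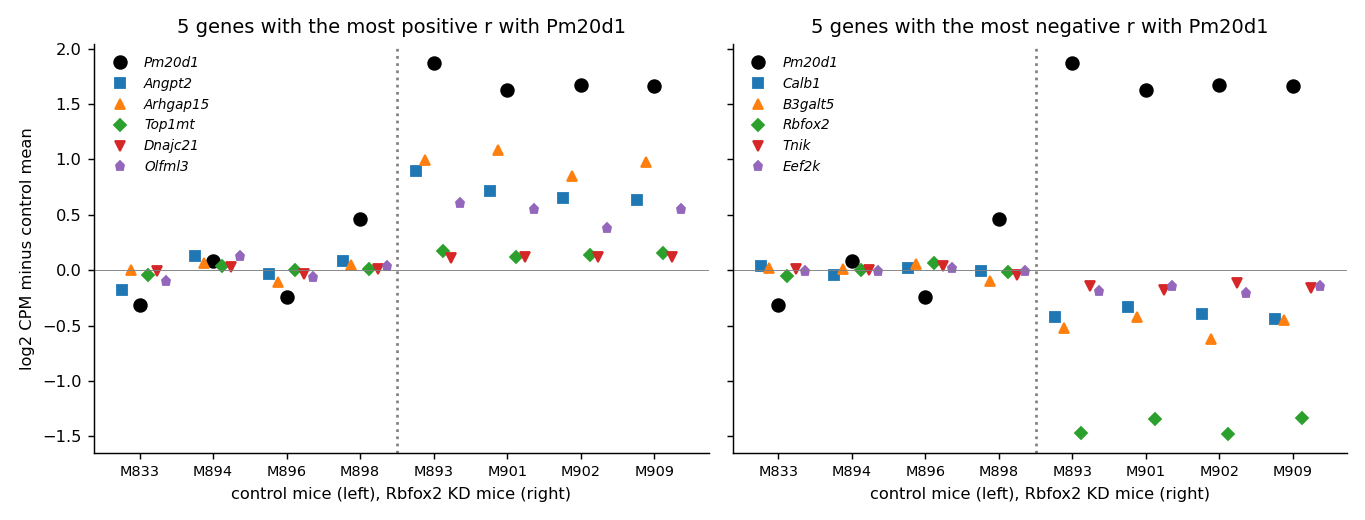
Log2 CPM minus the control mean (vertical axes) of *Pm20d1* (black) and of the 5 genes with the most positive (left) and the most negative (right) r with it, in the 4 control mice and the 4 *Rbfox2* KD mice (horizontal axes, 1 point per mouse). The KD points lie to one side of the control points in every gene shown, as the choice of genes by r brings about, and the shift of *Pm20d1* is the largest shown in size, beside that of *Rbfox2* in the other direction.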

How the data were processed

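The members and gene lists were chosen with earlier results of these data known. Per the study's methods, the authors aligned paired reads to mm10 with STAR, kept uniquely mapped reads and deposited raw counts per gene from HTSeq. RefSeq and Ensembl gene models are both named, and the strand setting is not given in the sources used here. The authors also deposited FPKM values, which were used for levels between genes only. The deposited table also holds the authors' fold changes, p-values, FDR and adjusted counts, which were not used.

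From the counts, edgeR 4.0.16 (R 4.3.3) was run with filterByExpr, TMM and the quasi-likelihood test without covariates, on 4 against 4 mice, with Benjamini-Hochberg adjustment over 16797 genes. Standard errors and 95% intervals come from that fit. CPM uses TMM library sizes, and log2 CPM a prior count of 2. The procedure was tested on simulated data with planted changes much larger than those of *Acy1* and *Cndp2*. That test does not cover differences as small as theirs. Depth was 160630226 to 211283591 counts per mouse, and precision is limited by the number of mice and, for genes with few counts, by counting. Alternatives were DESeq2 1.42.0, the likelihood ratio test, limma-voom (limma 3.58.1), upper-quartile normalization, no filter, each mouse left out, and M901 and M902 left out together. The labels give each mouse its own number and do not state litters.

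Genes named are the 5 members, *Rbfox2*, the called genes of each list or else the 4 with the lowest p, the neighbours of *Pm20d1*, the 5 genes most and least like it, and markers in their panels. *Napepld*, *Trpv1*, *Mgll*, *Rpl29* and *Abhd14a* were named after their values were seen. By symbol, 16636 of 17500 genes were placed on GENCODE M21 (GRCm38), and 14477 of 14489 lay on the chromosome the table gives. The transcript with the longest coding sequence was searched for the hexamer.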

Additional observations from a re-analysis of the deposited data

Results flagged for a closer look

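In 70 groups of 4 mice, the highest or lowest mouse was compared with the others. The genes were the members, the 4 others of lowest p in each list and those most and least like *Pm20d1*. Other named genes were not among them, such as *Mapkapk2*, with 44.9 CPM in control M898 and 42.4 to 42.7 CPM in the other controls. In 3 of the 70 groups, a mouse had a gap to the nearest other mouse above Dixon's critical value. Chance gives about 1 in 20, or 3.5 of 70. *Pm20d1* had its highest KD value in M893, with 7.81 CPM, while the other KD mice lay between 6.58 and 6.77 CPM (gap over range 0.848). Without M893 its log2 fold change was 1.62. *Aspa* had 1.40 CPM in the control mouse M898 and 0.519 to 0.549 CPM in the other controls (0.966). *Nucks1*, a neighbour of *Pm20d1*, had 147.9 CPM in the KD mouse M909 and 141.2 to 142.3 CPM in the other KD mice (0.834).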

How the results depend on the processing

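Of 56 recomputed log2 fold changes of *Acy1*, *Cndp2*, *Faah* and *Pm20d2* (14 alternatives each), 54 kept their direction and their side of the threshold and 0 reversed. Leaving out single mice gave log2 fold changes of 1.58 to 1.86 for *Pm20d1*, given as a description because of how it was chosen, 0.20 to 0.25 for *Acy1*, -0.20 to -0.14 for *Cndp2*, 0.06 to 0.13 for *Faah* and -0.09 to -0.05 for *Pm20d2*. Without M901 and M902, *Pm20d1* had a log2 fold change of 1.74, with 2 KD mice left, and no longer had an FDR under 0.05. With DESeq2, *Acy1* (0.22) and *Cndp2* (-0.17) passed the threshold, and the cause was not tested. The number of genes with an FDR under 0.05 was 11 with edgeR's quasi-likelihood test, 460 with DESeq2, 164 with the likelihood ratio test, 5 to 35 when single mice were left out and 1 (*Rbfox2*) without M901 and M902. Genes of the lists outside the 5 numbered 0, and 1 with DESeq2 (*Pla2g4e*). Per kilobase of GENCODE exons in place of FPKM, levels were 18.1 CPM per kilobase for *Pm20d2*, 4.48 for *Acy1*, 14.7 for *Cndp2* and 6.68 for *Faah*, since the exon lengths differ. No paired analysis was possible because the labels give each mouse its own number. Both the 4 mice per group and, for genes with few counts such as *Cndp1*, *Cnr2*, *Slc25a31*, *Acnat1*, *Pigr* and *Trpv1*, the depth limit the intervals, and the groups differed in the number of libraries with high *Xist*.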

Other observations

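The control mouse M898 had the highest control level of *Pm20d1* (2.94 CPM), *Acy3* (1.46 CPM), *Ucp2* (75.9 CPM), *Mgll* (199.9 CPM), the lipase that breaks down 2-arachidonoylglycerol, and *Slc41a1* (84.6 CPM). These genes were picked after their values were seen. M898 also stood apart in pigment and ciliary epithelium markers, with 65.7 CPM of *Tyrp1* against 5.13 to 24.9 CPM in the other controls, 51.7 CPM of *Pmel* against 2.87 to 21.7 CPM and 16.0 CPM of *Best2* against 5.13 to 7.31 CPM, and the part of these cells in the values above was not tested. Over the 71 tested genes of the members and lists, M898 was the highest control in 22 or 31.0%, and over all 16797 genes in 27.1%.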
